A study of Mus musculus with 14 samples.

Results

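The genes described here encode 4 families of transcription factors that act together in activated T cells, namely BATF, IRF4 with its kin, JUN and NFAT. They were chosen by gene name, and 9 of the 10 genes so chosen had values in all 14 samples. The remaining 1 was not analysed here. The 9 genes are Batf, Batf3, Irf4, Jun, Junb, Jund, Nfatc1, Nfatc2 and Nfatc3, out of 15112 genes tested in the first experiment and 13913 in the second. All samples were CD4+ T cells of C57BL/6 mice, taken from the spleen according to the labels and activated in culture with anti-CD3 and anti-CD28. For the first experiment the study describes naive CD4+ T cells, sorted from spleen and lymph nodes together and cultured with IL-2. Live cells were sorted from these cultures before RNA was prepared. In the first experiment, 4 WT samples and 4 HDAC1cKO-HDAC2HET samples (floxed Hdac1 on both alleles, floxed Hdac2 on 1 allele, with CD4-cre) were harvested after 3 days. In the second, 3 WT samples and 3 HDAC1cKO samples (floxed Hdac1 on both alleles with CD4-cre, both Hdac2 alleles kept) were cultured for 3 days as well, followed by 12 hours of anti-CD3 restimulation. CD4-cre deletes floxed alleles in the T cell lineage from the double-positive thymocyte stage onward, so the cells had developed without the deleted alleles before they were activated. By the study's description, the samples of the first experiment were independently prepared cell batches, 4 of each genotype, made on 1 day. For the second experiment no source used here ties samples to separate mice or cultures, so its p-values measure the spread between these samples only, which may be technical.

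AP-1 factors are pairs of basic leucine zipper proteins. JUN, JUNB and JUND pair with FOS or with BATF family proteins, and BATF and BATF3 lack an activation domain of their own and bind DNA as partners of JUN proteins. IRF4 binds DNA weakly alone and is recruited next to BATF-JUN pairs at composite sites in T cells. NFAT proteins rest phosphorylated in the cytoplasm, enter the nucleus when calcineurin removes phosphates after a calcium signal, and bind with AP-1 at cytokine genes. JUN activity is raised by JNK, the kinase encoded by Mapk8, Mapk9 and Mapk10.

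The values were FPKM, fragment counts scaled by transcript length and library size, with the 95% bounds that Cufflinks gives for each gene in each library. Depth, recovered from the width of those bounds, lay between 2.26e+07 and 5.33e+07 fragments per library, and the shallowest library was HDAC1cKO-HDAC2HET replicate 3. Hdac1 was at 76.3 to 79.6 FPKM in WT and 6.65 to 10.7 in HDAC1cKO-HDAC2HET cells, and at 72.3 to 81.1 in WT and 8.52 to 12.1 in HDAC1cKO cells, so every library matched its label. Hdac2 was at 58.2 to 60.3 FPKM in WT and 34.0 to 37.0 in HDAC1cKO-HDAC2HET cells, while its groups overlapped in the second experiment. CD4 T cell markers (6 of 6 with a value) summed to 1770 to 1965 FPKM in WT and 1438 to 1588 FPKM in HDAC1cKO-HDAC2HET samples, without overlap, and to 1592 to 1965 and 1625 to 1817 FPKM in restimulated WT and HDAC1cKO samples. Markers of macrophages (3 of 4 with a value), NK cells (2 of 3) and B cells (3 of 4) summed to at most 0.377, 0.0155 and 1.12 FPKM. The restimulated groups were unbalanced for Xist, which is transcribed in female cells. It was above 5 FPKM in 2 of 3 WT libraries and in 0 of 3 HDAC1cKO libraries, and it was above that level in all 8 libraries of the first experiment.

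After 3 days of activation, 6 of the 9 genes differed between HDAC1cKO-HDAC2HET and WT cells. Batf3 and Jun rose, and Irf4, Junb, Jund and Nfatc1 fell, at an adjusted p of at most 0.05 (limma on log2(FPKM + 0.1), Benjamini-Hochberg over all genes tested). This has to be read against the background, since 51.8% of all genes tested passed the same test, 24.2% higher and 27.6% lower in HDAC1cKO-HDAC2HET cells. A share of 6 in 9 is near that background. All 6 CD4 T cell markers fell in the same comparison, from a log2 fold change of -0.65 for Cd3d (adjusted p = 2.1e-05, limma) to -0.18 for Cd3g (adjusted p = 0.014), a range that takes in the changes of Irf4, Junb and Nfatc1 given below. Their part in those results was not tested. With a fold change of at least 2 required as well, 2 of the 9 genes were left, Batf3 and Jun, beside 11.2% of all genes. The FPKM ranges of the 2 genotypes did not overlap for 7 of the 9 genes, beside 50.4% of all genes. In restimulated cells none of the 9 genes passed the test in HDAC1cKO versus WT, where 0.0719% of all genes did (10 genes, with 1997 genes at an unadjusted p under 0.05). There the FPKM ranges did not overlap for 4 of the 9 genes (Batf, Batf3, Junb and Nfatc3), beside 22.3% of all genes.

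**Figure D1:**
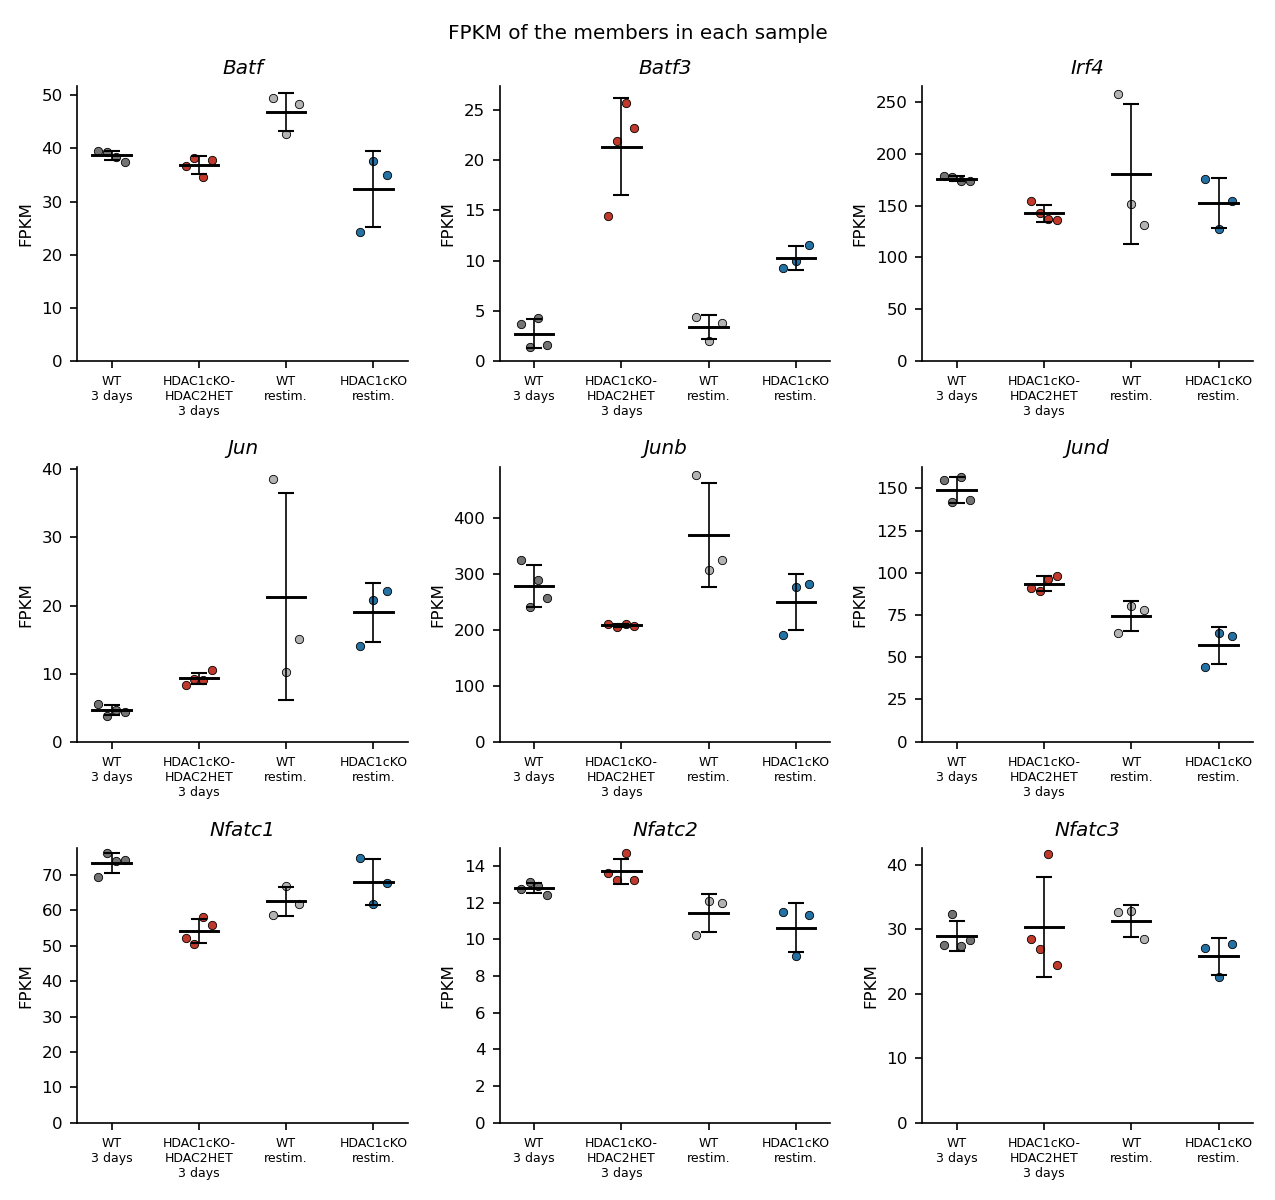
FPKM of the 9 genes in each sample of the 4 groups (points, linear axes from 0), with the group mean (bar) and SD (error bar). Batf3 lay at 14.5 to 25.7 FPKM in HDAC1cKO-HDAC2HET cells and at 1.34 to 4.26 in WT cells, whereas Jund, Nfatc1 and Irf4 lay below WT after 3 days. Restimulated WT replicate 1 is the high point for Jun, Irf4 and Junb.

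Batf3, whose product partners JUN proteins and is best known for the development of cross-presenting dendritic cells, showed the largest change of the 9 genes. Its 4 WT samples were at 3.68, 1.34, 4.26 and 1.54 FPKM after 3 days. The 4 HDAC1cKO-HDAC2HET samples were at 14.5, 22.0, 25.7 and 23.2 FPKM. All 4 HDAC1cKO-HDAC2HET samples were above all 4 WT samples, and the lowest Cufflinks lower bound in the former (12.9) was above the highest upper bound in the latter (5.17). The log2 fold change was 3.07 ± 0.40 (SE, 95% interval 2.14 to 4.00, adjusted p = 0.00039, limma), and the exact permutation test gave p = 0.0286 (2-sided), the smallest p that 4 against 4 samples allow. In bulk RNA, more cells that express a gene and more RNA per cell cannot be told apart. Batf3 (GRCm38 chr1:191097847-191108945, plus strand) was listed by name in all 7 WT libraries and, in HDAC1cKO-HDAC2HET replicates 1, 2 and 4 and HDAC1cKO replicates 1 and 2, as a longer assembled locus matched by position. In HDAC1cKO-HDAC2HET replicate 3, listed by name as in the WT libraries, it was at 25.7 FPKM, and in HDAC1cKO replicate 3, also listed by name, it was at 11.6 FPKM.

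In restimulated cells, Batf3 was at 4.38, 2.01 and 3.74 FPKM in WT and at 9.30, 9.95 and 11.6 FPKM in HDAC1cKO samples. The groups did not overlap. The log2 fold change was 1.64 ± 0.29 (SE), and it did not pass the correction over all genes (adjusted p = 0.147, limma, exact permutation p = 0.1, the smallest that 3 against 3 samples allow). It passed when both experiments shared 1 estimate of the spread (adjusted p = 0.029, limma). Among the libraries with low Xist, WT replicate 2 alone stood at 2.01 FPKM against 9.30 to 11.6 in the 3 HDAC1cKO libraries. The ratio of means was 7.88 in the first experiment and 3.04 in the second. The difference between the log2 fold changes was 1.43 (95% interval 0.22 to 2.63), with an adjusted p of 0.106 (limma contrast over all 14 samples), beside 15.7% of all genes that passed. Allele number of Hdac2 and restimulation both differ between the experiments and cannot be told apart in this contrast.

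Since Batf3 also marks dendritic cells, markers of that lineage were read beside it. Of the 6 dendritic cell markers, 5 had values after 3 days, and their sum was 0.598 to 1.08 FPKM in WT and 2.17 to 2.96 in HDAC1cKO-HDAC2HET samples. Nearly all of it came from Zbtb46, a zinc finger factor of conventional dendritic cells, which rose (log2 fold change 1.56, adjusted p = 0.00026, limma). Clec9a was at 0 FPKM in all 8 libraries, and Flt3, Xcr1 and Itgax did not exceed 0.05 FPKM in any of them. In the second experiment, 4 of the 6 markers had values, and their sums overlapped between WT (1.62 to 3.20 FPKM) and HDAC1cKO (2.11 to 3.74 FPKM). The 2 CD8 T cell markers summed to 3.28 to 5.96 FPKM in WT and 11.7 to 15.2 in HDAC1cKO-HDAC2HET samples, and to 3.80 to 4.86 and 6.52 to 7.30 in WT and HDAC1cKO samples after restimulation. Nearly all of each CD8 sum came from Cd8b1, and the highest Cd8a value in any library was 0.574 FPKM. The part of the dendritic and CD8 T cell markers in the Batf3 result was not tested.

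Batf, which encodes the BATF protein required for Th17 differentiation, stayed close to WT after 3 days. WT samples were at 39.5, 39.3, 38.4 and 37.5 FPKM, and HDAC1cKO-HDAC2HET samples were at 36.8, 38.2, 34.5 and 37.9 FPKM. The groups overlapped, and the 95% interval of the log2 fold change ran from -0.16 to 0.02 (adjusted p = 0.161, limma). In restimulated cells, Batf was at 49.4, 42.7 and 48.4 FPKM in WT and at 24.3, 37.7 and 35.0 FPKM in HDAC1cKO samples. Every HDAC1cKO sample was below every WT sample, with a log2 fold change of -0.56 ± 0.18 (SE, adjusted p = 0.27, limma, exact permutation p = 0.1). It passed only when both experiments shared 1 estimate of the spread (adjusted p = 0.017, limma). Without HDAC1cKO replicate 1, the lowest library, the log2 fold change was -0.36.

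The makeup of the BATF pair was also compared. Since FPKM is scaled by transcript length, levels can be set side by side within a library. Batf3 was 3.30 to 9.99% of the summed FPKM of Batf and Batf3 in WT samples and 28.3 to 42.7% in HDAC1cKO-HDAC2HET samples. The means were 6.44% ± 3.32 (SD, n = 4) and 36.4% ± 6.00 (SD, n = 4, exact permutation p = 0.0286, 0.0571 after Benjamini-Hochberg over 6 shares that were chosen after the values had been seen). In the second experiment the means were 6.60% ± 1.89 (SD, n = 3) and 24.5% ± 3.42 (SD, n = 3), and the groups did not overlap (exact permutation p = 0.1, adjusted 0.12).

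Irf4, induced by T cell receptor signals in proportion to their strength, was among the most abundant of the 9 genes and fell modestly. WT samples were at 178.5, 178.1, 173.8 and 174.0 FPKM after 3 days, and HDAC1cKO-HDAC2HET samples were at 154.1, 142.7, 137.2 and 136.3 FPKM. The groups did not overlap, and neither did the Cufflinks bounds (highest upper bound 159.1 against lowest lower bound 168.2). The log2 fold change was -0.31 ± 0.04 (SE, adjusted p = 0.00052, limma, exact permutation p = 0.0286), with a ratio of means of 0.810. The call was lost when both experiments shared 1 estimate of the spread (adjusted p = 0.155, limma). In the second experiment the SD of Irf4 was 68.1 FPKM in WT cells, against 2.55 FPKM in the WT cells of the first. Restimulated WT samples were at 258.3, 151.8 and 131.5 FPKM and HDAC1cKO samples at 175.6, 127.8 and 154.0 FPKM. The groups overlapped (log2 fold change -0.19, 95% interval -0.85 to 0.47, adjusted p = 0.767, limma), and without WT replicate 1 the difference was 0.10.

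Jun, Junb and Jund did not move together. Jun, the family member with the strongest transactivation, was at 5.55, 3.75, 4.72 and 4.44 FPKM in WT and at 8.37, 9.26, 9.08 and 10.5 FPKM in HDAC1cKO-HDAC2HET samples after 3 days. The groups were separate, and Jun rose by a log2 fold change of 1.00 ± 0.12 (SE, 95% interval 0.72 to 1.29, adjusted p = 0.00027, limma, exact permutation p = 0.0286). This places it at the 2-fold limit, with a fitted fold of 2.01, and the leave-one-out values ran from 0.91 to 1.10. Jun levels were higher in the second experiment, at 38.6, 10.2 and 15.1 FPKM in WT and 14.1, 20.8 and 22.1 FPKM in HDAC1cKO samples. The groups overlapped, and the log2 fold change of 0.04 had a 95% interval from -1.17 to 1.24 (adjusted p = 0.983, limma), so a change of the size seen after 3 days was not detectable with these samples. Without WT replicate 1 the log2 fold change was 0.58, and without WT replicate 2 it was -0.37. With sample weights it was 0.46, and with the Xist covariate 0.86, an estimate that rests on the 1 WT library of low Xist.

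Junb, a JUN protein that pairs with BATF in Th17 cells, had the highest mean FPKM of the 9 genes in every group as the rows are listed. With the FPKM of the antisense gene Gm11175 added to that of Jund, the mean sum was above Junb in all 4 groups. The sums were 740 and 438 FPKM in WT and HDAC1cKO-HDAC2HET cells, and 372.5 and 285.3 FPKM in restimulated WT and HDAC1cKO cells. In restimulated WT cells Junb was close to the sum, at a mean of 369.2 FPKM. The 2 rows are scaled to unlike lengths, so their sum is not a level of Jund and does not settle the order. After 3 days Junb was at 325, 241.5, 289.1 and 257.4 FPKM in WT and at 209.9, 204.9, 211.1 and 206.4 FPKM in HDAC1cKO-HDAC2HET samples. The groups were separate, and Junb fell by 0.41 on the log2 scale (SE 0.09, adjusted p = 0.005, limma, exact permutation p = 0.0286). The spread was in WT cells, with an SD of 36.9 FPKM against 2.89 FPKM in HDAC1cKO-HDAC2HET cells. After restimulation, WT samples were at 476.4, 306.4 and 324.7 FPKM and HDAC1cKO samples at 191.0, 275.9 and 281.7 FPKM, all 3 below WT. The log2 fold change was -0.56 ± 0.23 (SE), without passing the correction (adjusted p = 0.346, limma, exact permutation p = 0.1).

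Jund, the JUN protein that is expressed most steadily in resting and cycling cells, fell furthest of the 3 after 3 days. It was at 155.0, 142.0, 156.8 and 142.9 FPKM in WT and at 91.2, 89.0, 96.4 and 97.9 FPKM in HDAC1cKO-HDAC2HET samples. The lowest WT sample was well above the highest HDAC1cKO-HDAC2HET sample, and the log2 fold change was -0.67 ± 0.05 (SE, adjusted p = 1.9e-05, limma, exact permutation p = 0.0286). In restimulated cells the values were 64.2, 80.5 and 78.1 FPKM in WT and 44.2, 64.4 and 62.3 FPKM in HDAC1cKO samples, with 1 overlapping sample (log2 fold change -0.39 ± 0.17, SE, adjusted p = 0.369, limma, exact permutation p = 0.2). The Jund row spanned chr8:70698949-70700616 in the first experiment and chr8:70697739-70700616 in the second, so its levels in the 2 experiments describe unlike gene models. The antisense gene Gm11175 (chr8:70699162-70700080, minus strand) lies within Jund, at 561.6 to 623.2 FPKM in WT and 334.3 to 366.1 in HDAC1cKO-HDAC2HET samples, and fell as well (log2 fold change -0.78, adjusted p = 1.0e-05, limma). The library kit marks strand, but whether the counting used it is not given in the sources used here, and without strand reads of the pair cannot be told apart. The 2 rows summed, a measure chosen after their values had been seen, gave log2 fold changes of -0.76 and -0.39 in the 2 experiments.

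Jun nevertheless remained a small part of the family transcripts. Its share of the summed FPKM of Jun, Junb and Jund was 1.06% ± 0.07 (SD, n = 4) in WT samples. HDAC1cKO-HDAC2HET samples reached 2.99% ± 0.27 (SD, n = 4, exact permutation p = 0.0286, adjusted 0.0571 over the 6 shares). The ranges were 0.97 to 1.14% and 2.71 to 3.32%, without overlap. With Gm11175 counted into the sum, an alternative chosen after the values had been seen, the shares were 0.449% ± 0.047 and 1.42% ± 0.10 (SD, n = 4 each, exact permutation p = 0.0286), again without overlap. That sum joins rows scaled to unlike lengths, so it is not a level of the family. In the second experiment the WT share was 4.28% ± 2.13 (SD, n = 3), which overlapped with the HDAC1cKO share of 5.81% ± 0.20 (SD, n = 3) (exact permutation p = 0.4). The Jund row covers another gene model there, so the shares can be compared only within an experiment.

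**Figure D2:**
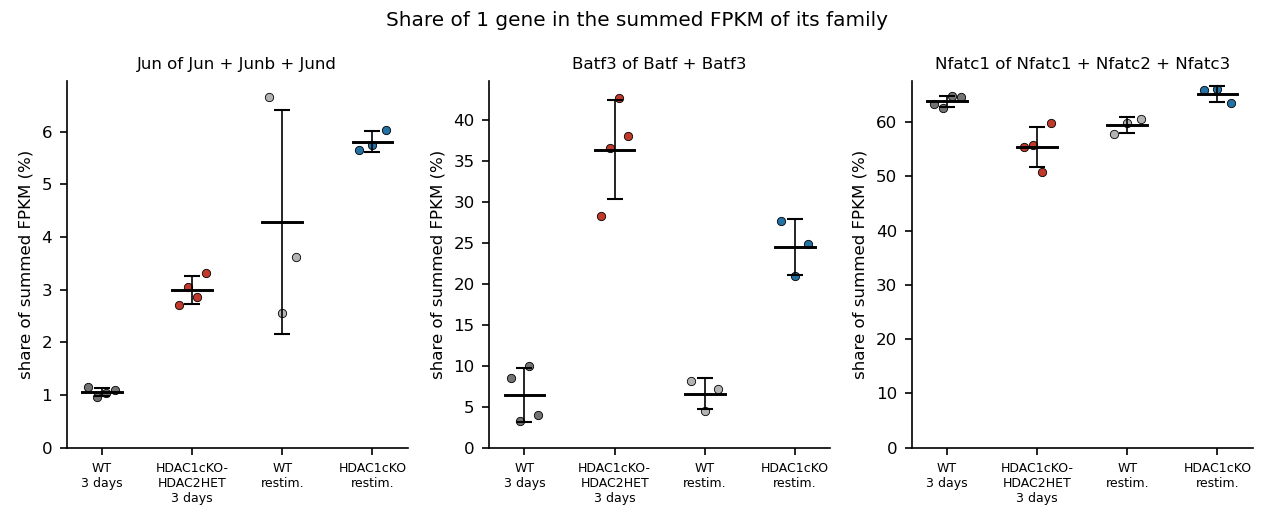
Share of Jun in its family, of Batf3 in the BATF pair and of Nfatc1 in the NFAT genes, in percent of the summed FPKM of the family in each sample (points), with group mean and SD. The Batf3 share averaged 36.4% in HDAC1cKO-HDAC2HET and 24.5% in HDAC1cKO samples, against 6.44% and 6.60% in the matching WT samples, while the Nfatc1 share lay below WT in the first experiment and above it in the second.

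The sequences before the transcription starts of the 3 JUN genes are shown because these relatives moved in opposite directions after 3 days. Each is the 250 bases before the RefSeq start (GRCm38.p6), 5′ to 3′ on the strand of the gene, and capitals mark a CRE-like site (TGACNTCA, bound by JUN-ATF pairs), a CCAAT box (CCAAT), a GC box (GGGCGG) or a TATA box (TATAAA) on either strand. Jun lies at chr4:95052223-95052472 (minus strand), Junb at chr8:84978749-84978998 (minus strand) and Jund at chr8:70697489-70697738 (plus strand). The Jund window precedes the longer gene model listed in the second experiment and ends 1210 bases before the row that fell after 3 days, so the sequence next to that row is not shown.
Jun: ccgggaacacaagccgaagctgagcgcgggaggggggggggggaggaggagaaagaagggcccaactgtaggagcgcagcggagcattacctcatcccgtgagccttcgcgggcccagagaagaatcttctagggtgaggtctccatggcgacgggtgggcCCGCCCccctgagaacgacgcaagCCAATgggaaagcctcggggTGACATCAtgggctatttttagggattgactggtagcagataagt
Junb: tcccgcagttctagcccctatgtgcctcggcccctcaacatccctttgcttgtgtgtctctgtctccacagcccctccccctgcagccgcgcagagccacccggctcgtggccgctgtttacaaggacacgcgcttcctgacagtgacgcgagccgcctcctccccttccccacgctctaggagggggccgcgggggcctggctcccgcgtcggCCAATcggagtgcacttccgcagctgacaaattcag
Jund: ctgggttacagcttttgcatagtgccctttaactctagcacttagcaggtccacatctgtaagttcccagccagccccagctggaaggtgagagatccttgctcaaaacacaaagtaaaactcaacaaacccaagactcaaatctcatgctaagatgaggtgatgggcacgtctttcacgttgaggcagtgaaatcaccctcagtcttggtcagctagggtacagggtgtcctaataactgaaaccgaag

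Jun held 1 CRE-like site, with its first base 45 bases before the start, and Junb and Jund held none in this window. A CRE-like site was found in 7.49% of the 32851 promoters in the table. Jun and Junb each held 1 CCAAT box (33.9% of promoters), and Jun held 1 GC box (32.7%). None of the 3 held a TATA box (12.4%). The AP-1 site TGANTCA (6.75% of promoters) and the IRF repeat, GAAA followed after any 2 bases by GAAA (2.98%), matched none of 10 promoters of 8 of the 9 genes, and the NFAT core GGAAA (55.6%) matched 6 of them, Batf3 and Jun included. These are matches of letters in 1 window, not binding sites.

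Nfatc1, the NFAT gene that T cell activation itself induces, was the gene among the 9 whose fold change differed between the experiments. After 3 days it was at 69.4, 76.3, 74.0 and 74.2 FPKM in WT and at 52.2, 50.5, 58.2 and 55.9 FPKM in HDAC1cKO-HDAC2HET samples. The groups were separate, and Nfatc1 fell by 0.44 on the log2 scale (SE 0.05, adjusted p = 0.00024, limma, exact permutation p = 0.0286). In restimulated cells it was at 58.7, 67.0 and 61.9 FPKM in WT and at 74.8, 61.8 and 67.7 FPKM in HDAC1cKO samples. The groups overlapped, with a log2 fold change of 0.12 (95% interval -0.11 to 0.36, adjusted p = 0.605, limma). The difference of the fold changes was -0.56 ± 0.10 (SE, 95% interval -0.78 to -0.34, adjusted p = 0.0035, limma contrast over 14 samples), the only one of the 9 genes that passed. Of all 12356 genes in this contrast, 15.7% passed, so a share of 1 in 9 is near that background. All 14 libraries listed Nfatc1 over the same span, chr18:80606205-80713071.

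Nfatc2, which encodes the NFAT protein present in resting T cells, showed separate groups but a difference of a few percent. It was at 12.7, 13.1, 12.9 and 12.4 FPKM in WT and at 13.7, 13.3, 14.7 and 13.2 FPKM in HDAC1cKO-HDAC2HET samples. All HDAC1cKO-HDAC2HET samples were higher, yet the Cufflinks bounds overlapped and the adjusted p was 0.094 (limma, log2 fold change 0.10 ± 0.04, SE). It passed with median-ratio scaling (log2 fold change 0.12, adjusted p = 0.043, limma) and with quantile normalization (0.15, adjusted p = 0.019, limma). Restimulated samples overlapped, at 9.09 to 12.1 FPKM over both genotypes (adjusted p = 0.723, limma).

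Nfatc3 was at 27.6, 32.4, 27.4 and 28.4 FPKM in WT and at 28.5, 26.9, 41.7 and 24.5 FPKM in HDAC1cKO-HDAC2HET samples. The groups overlapped (log2 fold change 0.04, 95% interval -0.33 to 0.41, adjusted p = 0.85, limma). The highest value belonged to replicate 3, the shallowest library, and without it the log2 fold change was -0.12. In restimulated cells all 3 HDAC1cKO samples (27.2, 22.6 and 27.7 FPKM) were below the 3 WT samples (32.7, 32.8 and 28.4 FPKM), with a log2 fold change of -0.28 ± 0.11 (SE, adjusted p = 0.339, limma, exact permutation p = 0.1). Of the summed FPKM of the 3 NFAT genes, Nfatc1 made up 63.8% ± 1.00 (SD, n = 4) in WT cells after 3 days, against 55.4% ± 3.65 (SD, n = 4) in HDAC1cKO-HDAC2HET cells. After restimulation it made up 59.4% ± 1.45 (SD, n = 3) in WT cells, against 65.2% ± 1.49 (SD, n = 3) in HDAC1cKO cells. The groups of neither experiment overlapped, in opposite directions (exact permutation p = 0.0286 and 0.1, adjusted 0.0571 and 0.12 over the 6 shares).

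**Figure D3:**
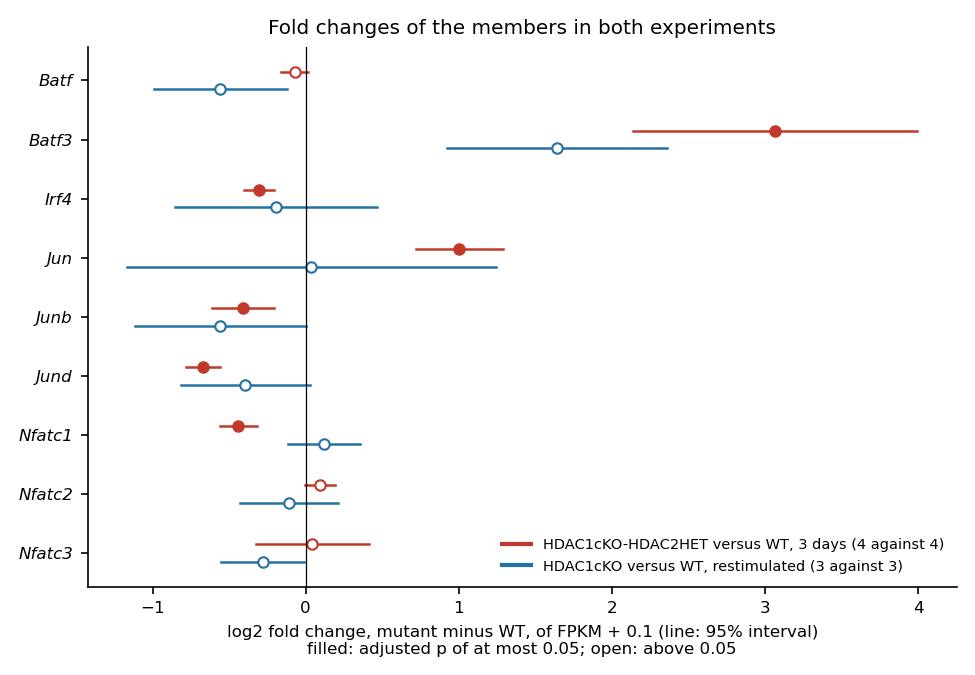
Log2 fold change of the 9 genes, mutant minus WT, in the first experiment (red, 4 against 4) and the second (blue, 3 against 3), with 95% intervals. Filled points have an adjusted p of at most 0.05. Batf3 stands furthest from 0 at 3.07, the 2 intervals of Nfatc1 do not overlap (-0.56 to -0.32 against -0.11 to 0.36), and the blue intervals are wider for all 9 genes except Batf3 and Nfatc3.

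The order of the 4 groups differed between genes. Batf3 was highest in HDAC1cKO-HDAC2HET cells (mean 21.3 FPKM), followed by HDAC1cKO (10.3), restimulated WT (3.38) and 3-day WT cells (2.71), and only the last pair overlapped. Jun was highest in restimulated WT (21.3 FPKM) and HDAC1cKO cells (19.0), which overlapped, and then stepped down without overlap to HDAC1cKO-HDAC2HET (9.29) and 3-day WT cells (4.61). For Irf4 and Junb every neighbouring pair of groups overlapped. Levels across experiments carry the difference in culture, and in Batf3, Junb, Jund and Nfatc3 also a difference in the listed gene model.

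Restimulated WT replicate 1 stood apart for several of the genes. It held the highest level of Jun (38.6 FPKM against 10.2 to 22.1 in the other 5 restimulated libraries), Irf4 (258.3 against 127.8 to 175.6) and Junb (476.4 against 191.0 to 324.7), and the lowest of Nfatc1 (58.7 FPKM) among the WT and HDAC1cKO samples. For Jund and Nfatc2 it was the lowest of the 3 WT samples.

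The genes with the most similar pattern over the 14 samples were looked up among 9556 genes with a mean of at least 1 FPKM in both experiments. For Batf3 these were Agrn (Pearson r = 0.97) and Dse (0.97), for Jun Gadd45b (0.99) and Oasl1 (0.98), for Junb Rora (0.94) and Tob2 (0.91), and for Jund its overlapping gene Gm11175 (0.99) and Sqle (0.98). Irf4 was closest to Taok1 (0.93) and Trim56 (0.93), and Nfatc1 to Brms1l (0.93) and Lancl3 (0.93). For Nfatc2 they were Amer1 and Ptger1, both at 0.91. Batf (Siah2 at 0.87 and Ramp1 at 0.80) and Nfatc3 (Gxylt1 at 0.87 and Fam126b at 0.82) had less similar partners. The 14 points share 4 groups, so these values are a description of the group means as much as of single samples.

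Genes that work with the 9 factors were read from 6 lists, whose counts stand beside the 24.2% of all genes that were higher and the 27.6% that were lower in HDAC1cKO-HDAC2HET cells. Of 12 other AP-1 and bZIP genes, 6 rose, 5 fell and 1 did not pass in HDAC1cKO-HDAC2HET cells (median log2 fold change 0.31, beside -0.05 over all genes). Batf2, the third BATF family gene, rose from 0.306 to 3.57 FPKM (log2 fold change 3.18, adjusted p = 2.8e-06, limma), and Jdp2, an inhibitory JUN partner, rose from 0.792 to 3.98 FPKM (2.18, adjusted p = 2.8e-05). Fosb, a FOS family partner of JUN, fell from 1.36 to 0.239 FPKM (-2.08, adjusted p = 0.00038), and Maff, a small MAF protein, fell as well (-0.78, adjusted p = 0.004). Of 7 other IRF genes, 3 could be tested: Irf1, an interferon-induced activator, rose (0.54, adjusted p = 0.0024), while Irf2 (-0.46, adjusted p = 6.4e-05) and Irf3 (-0.23, adjusted p = 0.013) fell.

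Of 18 calcineurin and NFAT regulators, 14 were tested, of which 3 rose, 8 fell and 3 did not pass (median -0.21). Rcan1, a calcineurin inhibitor that NFAT itself induces, fell from 8.06 to 4.77 FPKM (-0.74, adjusted p = 2.9e-05, limma), and Rcan3, of the same family, fell too (-0.59, adjusted p = 0.0011). Ppp3cc, a catalytic subunit of calcineurin, rose from 16.9 to 28.4 FPKM (0.74, adjusted p = 9.4e-05), as did Cabin1, a calcineurin-binding inhibitor (0.50, adjusted p = 0.0073). In the JNK pathway to JUN, 10 of 12 genes were tested, of which 4 rose, 4 fell and 2 did not pass (median 0.04). Mapk8, which encodes JNK1, fell from 16.4 to 7.99 FPKM (-1.03, adjusted p = 1.3e-05), and Dusp1, a phosphatase of MAP kinases, fell by 0.69 (adjusted p = 6.0e-05). Mapk9, encoding JNK2 (0.30, adjusted p = 0.00016), and Map2k4, the kinase upstream of both (0.36, adjusted p = 7.6e-05), rose.

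Among 11 known target genes of BATF and IRF4, 6 were tested, of which 1 rose, 3 fell and 2 did not pass (median -0.39). Ahr, the aryl hydrocarbon receptor, fell from 0.437 to 0.141 FPKM (log2 fold change -1.16, adjusted p = 0.0017, limma) and Icos, a costimulatory receptor, from 93.1 to 55.8 FPKM (-0.74, adjusted p = 0.00058). Prdm1, which encodes Blimp-1, rose from 0.108 to 2.95 FPKM (3.84, adjusted p = 5.6e-06). Its WT mean was close to the 0.1 FPKM added before the log, so the size of that fold change depends on the added value. Ctla4, an inhibitory receptor, was the only gene of the 6 lists called in restimulated cells, where it fell from 112 FPKM ± 15.5 to 46.5 ± 1.03 (SD, n = 3 each, log2 fold change -1.26, adjusted p = 0.036, limma), and it also fell after 3 days (-0.49, adjusted p = 0.0087). Of 12 known target genes of NFAT and AP-1, 11 were tested, of which 4 rose, 5 fell and 2 did not pass (median 0.02). Il2 (-2.02, adjusted p = 0.00042) and Egr3 (-1.82, adjusted p = 1.2e-06) fell, and Ifng (6.31, adjusted p = 1.9e-06) and Il3 (2.09, adjusted p = 0.00042) rose. The target genes thus moved in both directions, and in no list did the median pass 0.5 on the log2 scale in either direction.

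**Figure D4:**
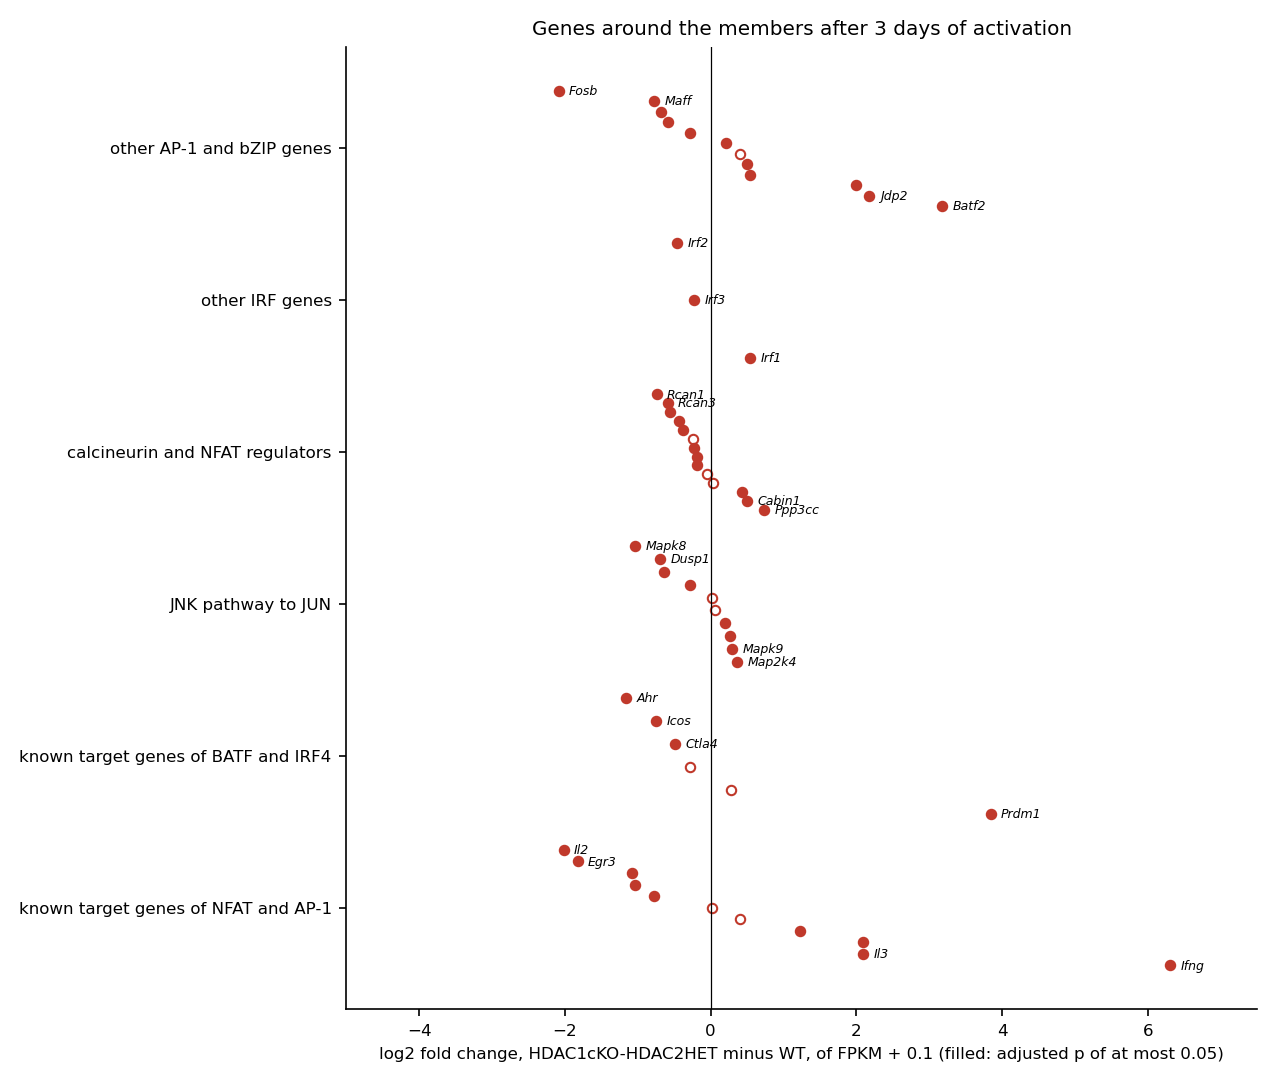
Log2 fold change of each tested gene of the 6 lists in HDAC1cKO-HDAC2HET versus WT cells after 3 days (x axis), by list (y axis). Filled points have an adjusted p of at most 0.05 and the genes named in the text are labelled. Each list holds genes on both sides of 0, from Fosb at -2.08 to Ifng at 6.31.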

How the data were processed

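RNA-Seq was done on 14 libraries (TruSeq Stranded mRNA per the labels). Reads of the 3-day experiment were 50-base single reads, and the read length of the restimulated experiment is not given in the sources used here. For the 3-day experiment the authors mapped reads to mm10 with TopHat and estimated FPKM with bounds by Cufflinks per library; the deposited FPKM of the restimulated experiment have the same columns. The submitters' processing notes also name STAR 2.5.2b, Subread 1.5.1, R 3.4 and edgeR. A gene's FPKM was its row listed by name, otherwise the assembled locus sharing at least 0.8 of the joint span with the gene or 1 of its transcripts (GENCODE, GRCm38). No count test was possible. Genes averaging 0.1 FPKM or more in an experiment were tested as log2(FPKM + 0.1) with limma 3.58.1 (intensity trend; R 4.3.3), each experiment alone, with Benjamini-Hochberg adjustment; single values with exact permutation tests (SciPy 1.17.1). Scripts were tested on simulated data. Depth limits precision: Cufflinks bounds cover estimation error only.

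The named genes were all 9 members, the 2 largest rises and falls of each list in the 3-day experiment, any list gene called after restimulation, and for each member the 2 genes with the highest Pearson r. Members and lists were chosen with earlier results of these data known. Of the target genes of BATF and IRF4, 1 is not reported here and was left out of the list's counts. Promoters are from RefSeq (GRCm38.p6). Alternatives were other pseudocounts, filters, scalings, fits, matching limits and left-out samples.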

Additional observations from a re-analysis of the deposited data

Results flagged for a closer look

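The log2 fold change of Nfatc1 differed between the 2 experiments, at -0.56 for HDAC1cKO-HDAC2HET versus WT minus HDAC1cKO versus WT (adjusted p = 0.0035, limma contrast over 14 samples). The same contrast was passed by 15.7% of all genes, so 1 in 9 is near the background. Nfatc1 was lower in 4 of 4 HDAC1cKO-HDAC2HET samples than in every WT sample, and the groups overlapped in the second experiment. Leaving out each sample in turn gave differences from -0.63 to -0.49. Hdac2 differed in the same contrast (-0.89, adjusted p = 0.00033, limma), as the genotypes imply, and restimulation differed too, so their parts cannot be told apart. The restimulated groups were also unbalanced for Xist. With the Xist covariate the log2 fold change of Nfatc1 in HDAC1cKO versus WT was 0.019, beside 0.12 without it. That estimate rests on the 1 WT library of low Xist. In the first experiment no library stood apart within the 24 groups of 4 values examined for the 9 genes and the 3 shares. Nfatc3 in HDAC1cKO-HDAC2HET replicate 3 (41.7 FPKM) was not far enough from the others. The restimulated groups hold 3 values each and were not among these 24.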

How the results depend on the processing

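The count of the 9 genes called in HDAC1cKO-HDAC2HET versus WT was 6 when each sample was left out in turn, 2 with a fold change of at least 2 and 2 with rows listed by name only, where 2 genes could be tested. It was 7 with median-ratio scaling, 8 with quantile normalization and 5 with both experiments fitted together. The count of all genes called in these settings was 7815, 7654 and 6043, the last among 12356 tested. It was 1686 with a fold change of at least 2, 1017 with rows listed by name only and 7130 to 7653 without 1 sample. For HDAC1cKO versus WT the count of the 9 genes was 1 with the Xist covariate (Batf3, an estimate that rests on 3 libraries against the 1 WT library of low Xist), 2 with both experiments fitted together and 0 without any 1 sample. All genes called there numbered 10, and 19 with a filter at 1 FPKM, 16 with median-ratio scaling, 6 without a trend, 30 with sample weights, 64 with the Xist covariate, 1352 with both experiments together, 6 with rows listed by name only, and 10 to 55 without 1 sample (30, 25 and 55 without WT replicates 1, 2 and 3, 16 and 18 without HDAC1cKO replicates 1 and 2). The Xist covariate could not be fitted in the first experiment. The number of the 9 genes with a difference of the fold changes was 1, beside 15.7% of all genes. It was 0 with rows listed by name only (1 gene tested), and 1 to 3 without 1 sample: 2 without restimulated WT replicate 2 or HDAC1cKO replicate 2, and 3 without HDAC1cKO replicate 1. Genes without overlap numbered 7 and 4, beside 50.4% and 22.3% of all genes. They numbered 2 and 0 with rows listed by name only, and 7 to 8 and 4 to 6 without 1 sample. Leaving out a sample can only remove overlap, and the share of all genes is not given here for these settings. Signs turned for values near 0. Nfatc3 in the first experiment was -0.029 with sample weights and -0.12 to 0.13 without 1 sample, Irf4 in the second -0.39 to 0.10, Jun in the second -0.37 to 0.58, and the differences of the fold changes of Irf4 -0.40 to 0.083 and of Junb -0.05 to 0.27. Batf in the first experiment passed with quantile normalization (-0.11, adjusted p = 0.041, limma). The cause of these changes was not tested. With the replicate number as a block, 7098 genes were called in HDAC1cKO-HDAC2HET versus WT and 5 in HDAC1cKO versus WT, and no call of the 9 genes changed. Same-numbered samples correlated at -0.027 to 0.066, not every sample correlated best with its own number, and the labels give no pairing.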
